A study of Homo sapiens with 32 samples.

Results

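HRNR (hornerin, ENSG00000197915), FLG (filaggrin, ENSG00000143631) and FLG2 (filaggrin-2, ENSG00000143520) are neighbours on chromosome 1. They were taken by name from a table of 57773 genes and 32 RNA-seq libraries, 3 rows of the whole. HRNR was selected because, among genes with a mean of at least 100 counts, a call and no overlap between treatments, it fell most when the repressive construct was induced, and its values in that comparison are therefore given as a description without a test. FLG and FLG2 were included as its neighbours. FLG was seen to fall in the same comparison, and it is treated in the same way.

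The libraries come from LNCaP cells, an androgen-dependent prostate cancer line taken from a metastatic lymph node. The parental line, labelled Ctrl, carries no construct. The other 3 lines carry a MACC, a fusion of a DNA-binding domain with the tamoxifen-responsive ERT2 domain that is meant to bring an effector to androgen response elements. The neutral MACC carries the FLAG tag without an effector domain, the repressive MACC adds KRAB and the activating MACC adds VP64. The construct lines were made with lentivirus, carry the fusion under a PGK promoter backbone and were selected with blasticidin, so that line and selection cannot be told apart in a comparison with the parental line. Every line was given ethanol vehicle or 2.5 µM tamoxifen for 48 h, with 4 libraries labelled as biological replicates in each of the 8 groups. No separate cultures are named, and the p-values measure the spread between these libraries, which may be technical.

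Hornerin, filaggrin and filaggrin-2 belong to the S100-fused-type proteins, in which a calcium-binding S100 domain is joined to long runs of repeats. In the outer layers of skin, filaggrin is cut from a large precursor, bundles keratin filaments and is broken down to small hygroscopic molecules. Hornerin and filaggrin-2 are deposited in the cornified envelope, and all of these genes lie in the epidermal differentiation complex. None of them is a usual marker of prostate epithelium.

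In the GENCODE annotation lifted to GRCh37, HRNR occupies chromosome 1 from 152184552 to 152196669, FLG from 152274641 to 152297715 and FLG2 from 152321211 to 152332482. All are on the minus strand and have 3 exons, of which the last holds nearly all of the transcript (9415 of 9629 exonic bases in HRNR, 12583 of 12793 in FLG and 8913 of 9124 in FLG2). The 250 bases upstream of each start site are shown because these are the closest windows in which to look for the element that the constructs are built to reach. They were read from the GRCh37 minus strand at chr1:152196670-152196919 for HRNR, chr1:152297716-152297965 for FLG and chr1:152332483-152332732 for FLG2, and are identical to the upstream part of the RefSeq promoter table. Capitals mark TATAAA.
HRNR: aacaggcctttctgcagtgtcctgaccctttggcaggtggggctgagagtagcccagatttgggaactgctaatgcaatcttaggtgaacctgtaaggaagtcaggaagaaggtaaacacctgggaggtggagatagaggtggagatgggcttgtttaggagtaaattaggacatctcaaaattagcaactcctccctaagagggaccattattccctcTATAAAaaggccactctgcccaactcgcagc
FLG: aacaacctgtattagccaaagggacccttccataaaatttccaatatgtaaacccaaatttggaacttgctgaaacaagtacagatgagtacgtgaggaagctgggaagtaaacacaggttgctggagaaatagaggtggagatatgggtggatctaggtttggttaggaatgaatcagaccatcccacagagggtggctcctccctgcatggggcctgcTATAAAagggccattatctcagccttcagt
FLG2: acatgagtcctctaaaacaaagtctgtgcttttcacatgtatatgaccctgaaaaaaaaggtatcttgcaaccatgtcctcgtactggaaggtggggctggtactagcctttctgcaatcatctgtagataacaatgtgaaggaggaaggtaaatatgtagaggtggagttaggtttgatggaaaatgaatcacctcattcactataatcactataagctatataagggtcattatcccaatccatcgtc
TATAAA starts 31 bases before the HRNR start site and 30 bases before that of FLG, and these exact letters are not in the FLG2 window. The FLG2 window holds the similar letters tatataag near its end. Forms other than TATAAA were not searched, so that a difference between the genes is not read from this. Of 35116 RefSeq promoter windows searched on both strands, 10.7% hold TATAAA. Aligned to each other, the HRNR and FLG windows are identical in 57.2% of alignment columns, HRNR and FLG2 in 49.2% and FLG and FLG2 in 52.0%. Forms of the androgen response element were searched on both strands. The full form is AGAACA and TGTTCT separated by any 3 bases, the looser form is GNACA and TGTNC separated by any 3 bases, and the single arm is AGAACA. None was found in the 3 windows. They were found in 0.00285%, 0.327% and 12.4% of all promoter windows. A match of the full form is by its letters also a match of both others.

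Across the 147931 bases from the end of HRNR to the FLG2 start site, the full element had 0 matches, against 45 on chromosome 1 as a whole. The looser form had 2 matches, or 1.35 per 100 kb, against 1.31 per 100 kb along chromosome 1. They are shown because they are the only matches in the stretch searched. Capitals mark the match.
inside HRNR, chr1:152191703-152191715, GRCh37 plus strand: GAACAACTTGTGC
between HRNR and FLG, chr1:152225540-152225552, GRCh37 plus strand: GGACACTTTGTTC
Counted upstream from the HRNR start site, the first lies at -4.97 kb, in exon 3 of HRNR, and the second at 28.87 kb. A match is a description of the letters and no measurement of binding was used here.

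HRNR and FLG stood out in their surroundings. Within 300 kb of HRNR, 20 annotated genes were in the table, and HRNR (8560 counts over the 32 libraries) and FLG (3538) together held 99.3% of the counts. S100A11, a calcium-binding S100 protein, had 37 counts and FLG2 had 36, and these were the only others with 10 or more. Of the 20 genes, 12 had 0 counts in every library, among them the S100-fused genes RPTN, CRNN and TCHHL1. TCHH, which encodes trichohyalin of the hair follicle sheath, had 6 counts in all.

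**Figure D1:**
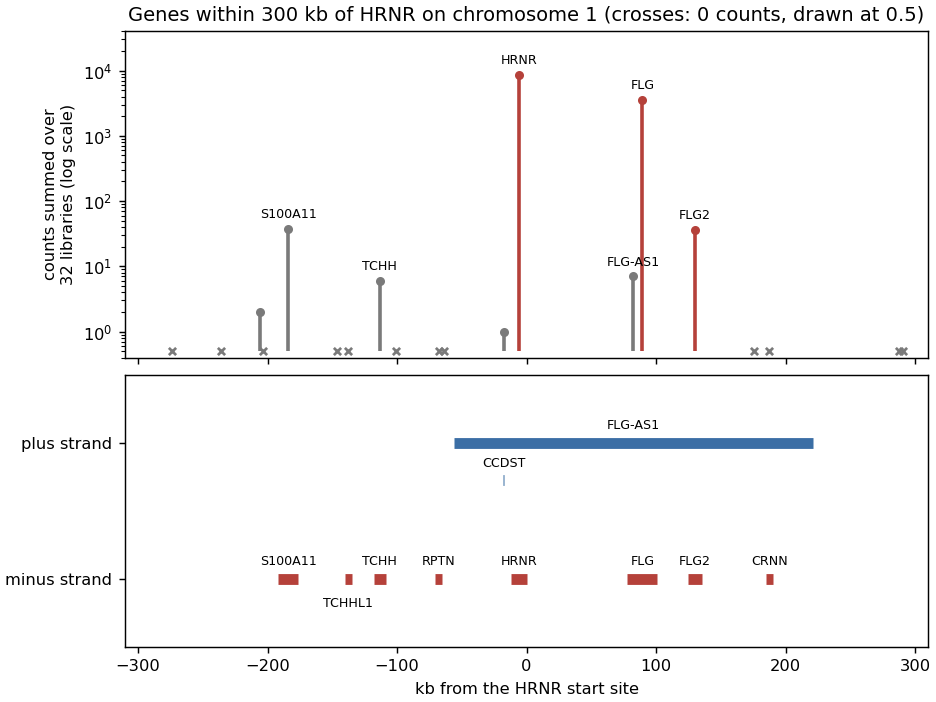
The upper panel gives the counts of each table gene within 300 kb of HRNR, summed over 32 libraries on a log axis, at the middle of the gene as distance in kb from the HRNR start site, and crosses stand for 0 counts. The lower panel draws named genes to scale by strand. HRNR (8560 counts) and FLG (3538) rise above every other gene, while FLG-AS1, which spans all 3 genes on the plus strand, has 7.

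FLG-AS1 (ENSG00000237975), a long noncoding RNA gene on the plus strand from 152140601 to 152417932, spans HRNR, FLG and FLG2. Its exons overlap 1587 exonic bases of FLG, while HRNR and FLG2 lie within its introns. It had 7 counts over the 32 libraries, 0 to 2 in each. The strand of the RNA behind the HRNR and FLG counts was not determined here. The library kit marks strand, and the strand setting of the counting is not given in the sources used here. Genes with an exon overlap on the opposite strand were 23.0% of the annotated table genes and held 80.9% of the counts, and the glycolytic gene GAPDH averaged 65.6 counts in a library while the gene opposite it averaged 17178. The names HRNR and FLG, and those of all other genes and markers, therefore stand for the rows of the table that carry them. Whether the HRNR and FLG reads came from their own mRNAs or from RNA of the plus strand was not tested. The strand was not tested for the other rows either.

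Library totals ran from 454982 to 1164808 counts with a median of 669922. HRNR had 29 to 476 counts in a library, FLG 5 to 249 and FLG2 0 to 4, so that counting error is small for HRNR outside the induced repressive line and large for FLG2. Levels are given as normalized counts, which are counts scaled to CPM with TMM library sizes. All 10 markers of prostate luminal cells had counts (424 to 6000 summed per library). Of 10 markers of keratinocytes or basal cells 7 had a count, with 0 to 58 summed per library. KRT5, the basal keratin, was at 0 in every library except the activating line under tamoxifen, where it had 195 counts over 4 libraries, and its part in the values of that group was not tested. Of 5 fibroblast markers 1 had a count (0 to 2 summed per library), as did 1 of 4 leukocyte markers (0 to 1).

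In parental cells HRNR was at its highest. Its normalized counts under vehicle were 534, 756, 642 and 610 in replicates 1 to 4, a mean of 636 ± 92.2 (SD, n = 4). Under tamoxifen they were 691, 660, 737 and 693, a mean of 695 ± 31.5 (SD, n = 4). All 4 tamoxifen libraries fell within the range of the vehicle libraries. The log2 fold change was 0.09 (standard error 0.0911, 95% interval -0.10 to 0.28, adjusted p = 0.838 from edgeR). FLG had 305, 376, 359 and 324 under vehicle and 361, 341, 408 and 348 under tamoxifen. The groups overlapped, with tamoxifen replicate 3 above every vehicle library. The means were 341 ± 32.5 and 365 ± 30.5 (SD, n = 4 each), and the log2 fold change was 0.05 (standard error 0.102, 95% interval -0.16 to 0.27, adjusted p = 0.933 from edgeR). Neither gene passed the test, and neither did any of the 3985 genes tested (0% called by edgeR and 0 genes by DESeq2, with 306 at an unadjusted p under 0.05 in edgeR).

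Corrected for the length of the annotated exons, HRNR stood above FLG in the parental line under vehicle, at a normalized count of 66 per kb against 26.7 for FLG and 0.436 for FLG2. No 31-base stretch of the transcripts is shared between HRNR, FLG and FLG2. HRNR shares none with any other gene, although 27.8% of its distinct stretches occur more than once within it. For FLG, 16.8% of the stretches also lie in FLG-AS1.

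In the neutral line HRNR did not pass the test of the response to tamoxifen. Normalized counts were 383, 337, 334 and 404 under vehicle and 374, 300, 367 and 354 under tamoxifen, with means of 364 ± 34.7 and 349 ± 33.6 (SD, n = 4 each). The groups overlapped, and the log2 fold change was -0.08 (standard error 0.0958, 95% interval -0.28 to 0.12, adjusted p = 0.764 from edgeR). FLG had 111, 87.1, 129 and 113 under vehicle and 124, 133, 151 and 145 under tamoxifen. Its means were 110 ± 17.1 and 138 ± 12.1 (SD, n = 4 each), and 3 of the 4 tamoxifen libraries lay above every vehicle library. The log2 fold change of 0.31 (standard error 0.133, 95% interval 0.04 to 0.59) gave an adjusted p of 0.223 from edgeR and was not called. Of all genes tested in this comparison, 4.72% were called.

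With the repressive MACC, HRNR and FLG were both near the bottom of their range once tamoxifen was given. HRNR had normalized counts of 433, 477, 320 and 498 under vehicle and 43.8, 50.5, 88.6 and 84.3 under tamoxifen. The highest induced library was below the lowest vehicle library. The means were 432 ± 79.6 and 66.8 ± 22.9 (SD, n = 4 each). The fit across genes gave a log2 fold change of -2.75 (standard error 0.207), or 6.74-fold lower, and this and the other folds below are fitted values and not ratios of the printed means. FLG had 135, 164, 99.5 and 156 under vehicle and 6.43, 13.9, 35.1 and 19.6 under tamoxifen, again without overlap. The means were 138 ± 28.7 and 18.8 ± 12.2 (SD, n = 4 each), and the fitted log2 fold change was -2.96 (standard error 0.305), or 7.79-fold lower. The induced FLG values rest on 5, 8, 23 and 13 counts.

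HRNR was selected from this contrast among genes with a mean of at least 100 counts over its 8 libraries, a call in edgeR and no overlap between treatments. At the edge of the selection, HRNR (176 counts on average) had -2.75, and the next gene was TBPL1, a TATA-binding protein relative, at -1.61. FLG, with 55.8 counts on average, was below that minimum. By size of the fall among all genes tested, FLG had rank 11 and HRNR rank 14. Of all genes tested, 17.8% were called in this contrast, and nothing is read from that share here.

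In the activating line HRNR was lower under tamoxifen in all 4 libraries but did not pass the threshold. It had 346, 361, 441 and 582 under vehicle and 318, 202, 300 and 207 under tamoxifen, with means of 432 ± 108 and 257 ± 60.7 (SD, n = 4 each). The lowest vehicle library was above the highest tamoxifen library. The log2 fold change was -0.62 (standard error 0.227, 95% interval -1.14 to -0.10, adjusted p = 0.0558 from edgeR), beside a median of -0.09 over all genes. In this comparison 44.8% of all genes tested were called, and 1053 of the 3985 tested had a larger fall than HRNR. DESeq2 called HRNR (log2 fold change -0.60, adjusted p = 0.00601), and so did edgeR without any 1 of vehicle replicates 1, 2 and 4 or tamoxifen replicate 1, with adjusted p-values from 0.0372 to 0.0477. Adjusted p-values over the other settings ran from 2.8e-06 to 0.164.

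FLG was not called in the activating line. It had 92.9, 121, 141 and 204 under vehicle and 165, 91.9, 151 and 91.8 under tamoxifen. The groups overlapped, with tamoxifen replicates 2 and 4 just below every vehicle library and vehicle replicate 4 above every tamoxifen library. The means were 140 ± 46.9 and 125 ± 38.7 (SD, n = 4 each), and the log2 fold change was -0.01 (standard error 0.293, 95% interval -0.68 to 0.65, adjusted p = 0.978 from edgeR), of which the sign changed with the scaling and with the library left out. The interval includes the value seen for HRNR. Scaled to library totals without TMM, the median of all genes in this line moved by -0.45, HRNR had -1.06 and FLG -0.46.

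**Figure D2:**
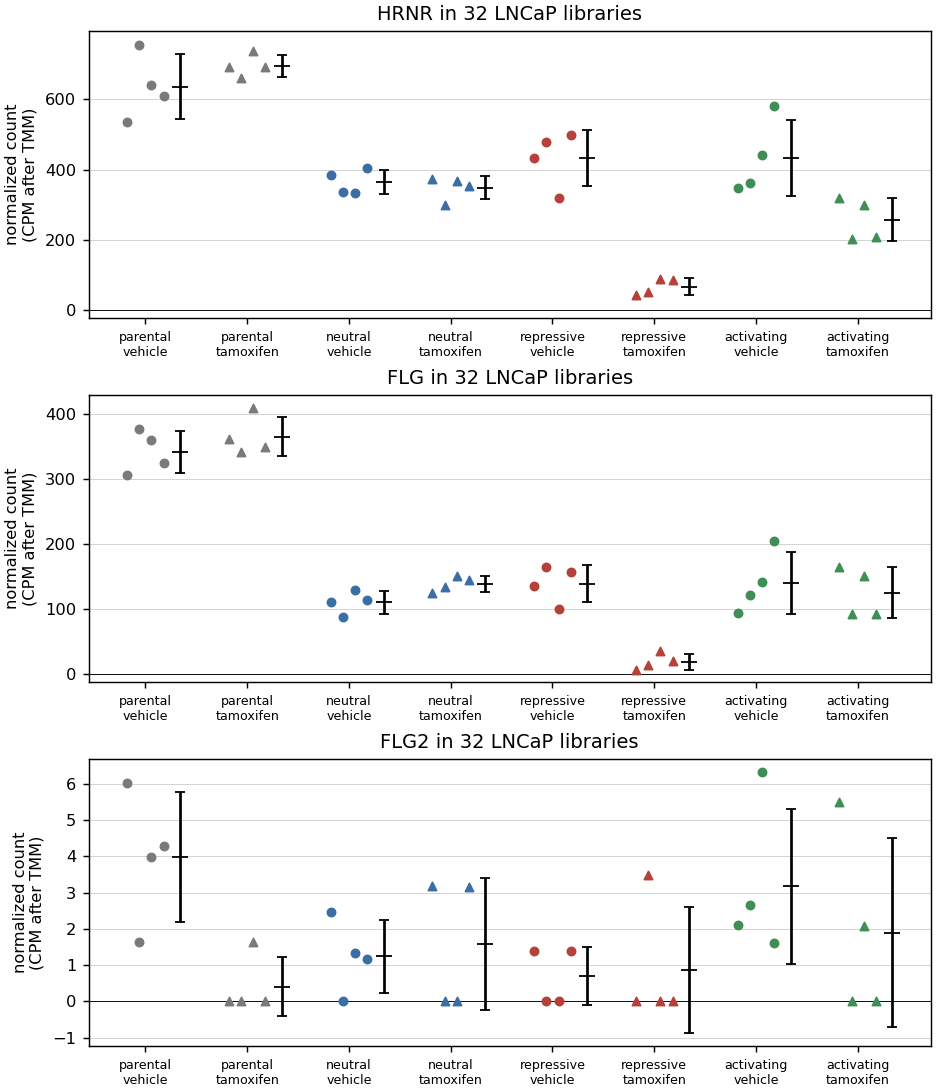
Normalized counts (CPM after TMM) of HRNR, FLG and FLG2 in each of 32 libraries, with circles for vehicle and triangles for tamoxifen. The bar beside each group of 4 is the mean ± SD. The repressive line under tamoxifen lies at 43.8 to 88.6 for HRNR and 6.43 to 35.1 for FLG, below every other library, and FLG2 stays at 6.32 or less.

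The difference between the activating and the neutral response was tested in 1 fit of their 16 libraries. For HRNR it was -0.57 on the log2 scale (standard error 0.255, 95% interval -1.11 to -0.02, adjusted p = 0.107 from edgeR). For FLG it was -0.35 (standard error 0.314, 95% interval -1.01 to 0.31, adjusted p = 0.432 from edgeR). Neither passed, while 33.4% of all genes tested did. HRNR passed without activating tamoxifen replicate 1 (log2 difference -0.70, adjusted p = 0.0472 from edgeR). The same difference for the repressive line was not tested, since the genes were chosen from its response.

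Before any induction, both genes were lower in the neutral and activating lines than in parental cells, with a larger log2 fold change for FLG than for HRNR in each. In the neutral line under vehicle HRNR had a mean of 364 against 636 in the parental line with no overlap, and was 1.79-fold lower in the fit (log2 fold change -0.84, standard error 0.102, adjusted p = 1.24e-06 from edgeR). FLG had 110 against 341 with no overlap, and was 3.18-fold lower in the fit (log2 fold change -1.67, standard error 0.126, adjusted p = 7.74e-11 from edgeR). Both were called, where 9.74% of all genes tested were, and 14 genes had a larger fall than FLG. Both calls held without any 1 library.

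In the activating line under vehicle FLG had a mean of 140 against 341 in the parental line with no overlap, and was 2.48-fold lower in the fit (log2 fold change -1.31, standard error 0.187, adjusted p = 0.00102 from edgeR). This call held in every alternative run, with adjusted p-values up to 0.0155. HRNR had 432 against 636, with overlap through activating replicate 4 at 582, and was 1.48-fold lower in the fit (log2 fold change -0.56, standard error 0.151, adjusted p = 0.0393 from edgeR). The HRNR call was lost without any 1 of the 4 parental libraries or of activating replicates 1, 2 and 3 (adjusted p from 0.0801 to 0.139 in edgeR). Of all genes tested, 8.08% were called. Between the activating and neutral lines neither gene was called under vehicle, with a log2 fold change of 0.24 for HRNR (95% interval -0.13 to 0.62, adjusted p = 0.71 from edgeR) and 0.33 for FLG (95% interval -0.13 to 0.79, adjusted p = 0.676 from edgeR), where 0.402% of all genes were called.

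The repressive line under vehicle is given without a test. Its HRNR mean was 432 against 636 in the parental line (log2 fold change -0.55, standard error 0.115) and 364 in the neutral line (0.28, standard error 0.105). Its FLG mean was 138 against 341 (-1.28, standard error 0.132) and 110 (0.38, standard error 0.138). The comparisons with the parental line share its 4 vehicle libraries.

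**Figure D3:**
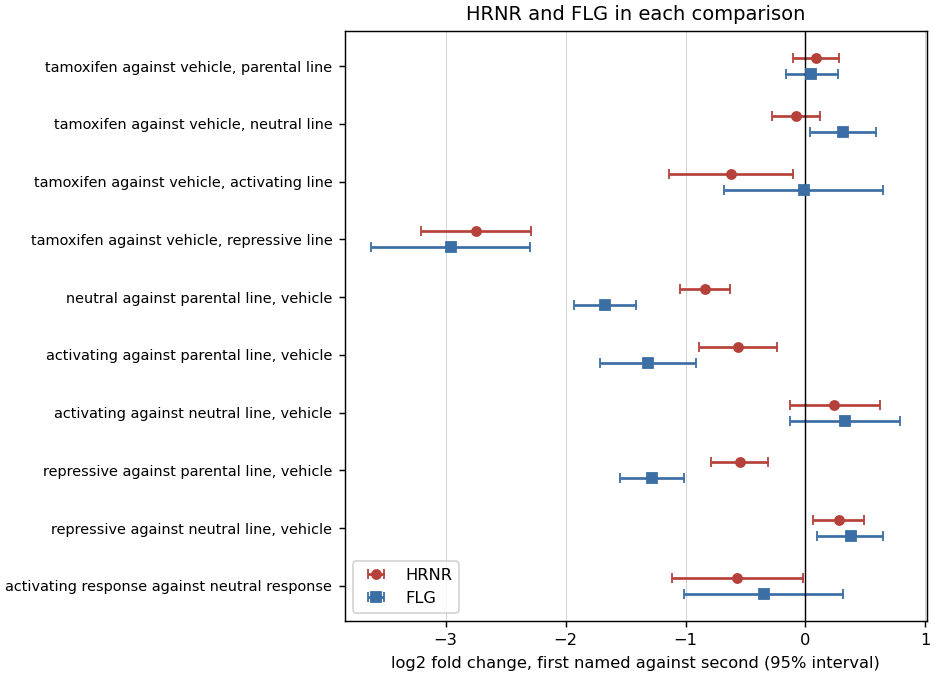
Log2 fold changes of HRNR (circles) and FLG (squares) in each comparison, first named against second, with 95% intervals from edgeR. The repressive response is at -2.75 and -2.96, and in each comparison of a construct line with parental cells under vehicle FLG lies further to the left than HRNR.

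In the order of mean HRNR levels the parental line came first, under tamoxifen (695) and then vehicle (636). The activating and repressive lines under vehicle (432 each), the neutral line under vehicle (364) and tamoxifen (349) and the activating line under tamoxifen (257) followed. Each of these groups overlapped the next in the order. The repressive line under tamoxifen (66.8) was last and did not overlap the group above it. For FLG the order broke in 2 places. Parental cells (365 and 341) did not overlap the next group, the activating line under vehicle (140). From there the repressive line under vehicle (138), the neutral line under tamoxifen (138), the activating line under tamoxifen (125) and the neutral line under vehicle (110) each overlapped their neighbour. The repressive line under tamoxifen (18.8) again stood alone.

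Because HRNR and FLG were counted in the same libraries, the ratio of FLG to HRNR does not depend on library scaling. This measure was added after the data were seen. In parental cells there were 57.1, 49.8, 55.9 and 53 FLG counts per 100 HRNR counts under vehicle and 52.3, 51.7, 55.5 and 50.1 under tamoxifen. In the neutral line under vehicle there were 29, 25.9, 38.6 and 27.9, and in the activating line 26.8, 33.6, 31.9 and 35. Every vehicle library of these construct lines was below every parental library. The log2 difference from parental cells was -0.85 for the neutral and -0.77 for the activating line (exact two-sided permutation p = 0.0286 for each, which is the lowest possible with 4 libraries a side, or 0.0571 with Benjamini-Hochberg adjustment over 6 comparisons). Between the activating and neutral lines under vehicle the log2 difference was 0.08 (exact permutation p = 0.629, adjusted 0.629).

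Under tamoxifen the ratio in the activating line was 52, 45.5, 50.3 and 44.3, above all 4 vehicle libraries of that line. The means were 48 ± 3.72 and 31.8 ± 3.56 (SD, n = 4 each), a log2 difference of 0.60 (exact permutation p = 0.0286, adjusted 0.0571). In the neutral line it was 33.2, 44.3, 41.2 and 40.9 under tamoxifen, with means of 39.9 ± 4.71 and 30.3 ± 5.63 (SD, n = 4 each) and overlap through vehicle replicate 3 (log2 difference 0.40, exact permutation p = 0.0571, adjusted 0.0857). In parental cells the means were 52.4 ± 2.24 and 54 ± 3.28 (SD, n = 4 each; log2 difference -0.04, exact permutation p = 0.429, adjusted 0.514). None of the 6 passed after adjustment. In the repressive line the ratio was 31.2, 34.3, 31.1 and 31.3 under vehicle and 14.7, 27.6, 39.7 and 23.2 under tamoxifen, a log2 difference of -0.37 given without a test. The induced libraries ranged from below every vehicle library to above all of them.

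**Figure D4:**
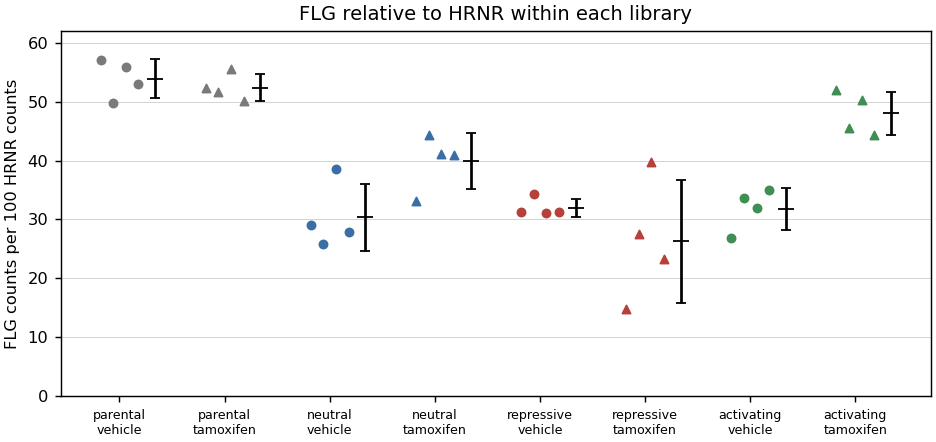
FLG counts per 100 HRNR counts in each library, with circles for vehicle, triangles for tamoxifen and bars for the mean ± SD of 4. Parental libraries lie at 49.8 to 57.1, the construct lines under vehicle at 25.9 to 38.6 and the activating line under tamoxifen at 44.3 to 52.

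FLG2 was at the edge of detection and did not enter the fit across genes. It had 0 counts in 13 of 32 libraries, and in those libraries 3 counts, the upper 95% limit for a count of 0, correspond to a normalized count of 3.61 to 5.75. Parental cells had 3, 1, 2 and 3 counts under vehicle and 0, 0, 1 and 0 under tamoxifen, or 9 against 1 in all. The mean normalized counts were 3.98 ± 1.8 and 0.41 ± 0.82 (SD, n = 4 each), with an exact permutation p of 0.0571 (two-sided) that became 0.171 over 3 comparisons. The neutral line had 4 counts under vehicle and 5 under tamoxifen, a difference in mean normalized count of 0.339 that did not pass the same test, and the activating line 9 and 4 (exact permutation p = 0.457, adjusted 0.686). The repressive line had 2 and 2. With 3 comparisons of 4 against 4 libraries and 0 to 4 counts in a library, the FLG2 values do not show whether it differed.

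Other genes of the cornifying epidermis gave little signal. Of 94 genes in 3 lists (7 of the S100-fused family, 61 of the epidermal differentiation complex and 26 cornification enzymes and partners), 5 passed the filter on low counts, and these were HRNR, FLG, S100A1, DSG1 and CDSN. In the epidermal differentiation complex list 48 of 61 genes had 0 counts in every library. In the parental and neutral responses 0 of the 5 were called, where 0% and 4.72% of all genes tested were, so that nothing is read from this count.

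S100A1, an S100 calcium-binding protein best known from muscle, fell in the repressive line from 97 to 55 counts over 4 libraries (log2 fold change -0.78, standard error 0.272, adjusted p = 0.0433 from edgeR). It fell in the activating line from 91 to 34 counts (log2 fold change -0.82, standard error 0.275, adjusted p = 0.0182 from edgeR). DSG1, a desmosomal cadherin of the epidermis, fell in the activating line from 22 to 2 counts (log2 fold change -2.66, standard error 0.854, adjusted p = 0.0139 from edgeR). CDSN, the corneodesmosome protein corneodesmosin, rose there from 6 to 55 counts (log2 fold change 3.68, standard error 0.521, adjusted p = 3.58e-06 from edgeR). The median over the 5 was -0.62 in the activating line, against -0.09 over all genes tested. That median is the value of HRNR itself, which was not called, and the 5 ran from -2.66 to 3.68, so that no shift of the list is read from it. In the repressive line the median was -1.06 against 0.00, where it includes the 2 genes chosen from that contrast.

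KLK3 and FKBP5, genes known to be induced by androgen, fell with the repressive MACC and rose with the activating MACC. KLK3, which encodes prostate-specific antigen, fell with the repressive MACC (log2 fold change -2.03, standard error 0.327, edgeR adjusted p = 3.16e-05) and rose with the activating MACC (0.66, standard error 0.209, edgeR adjusted p = 0.013). FKBP5, a co-chaperone of steroid receptors, fell with the repressive MACC (-2.78, standard error 0.683, edgeR adjusted p = 0.00394) and rose with the activating MACC (3.69, standard error 0.248, edgeR adjusted p = 1.44e-11). KLK2 was called in none of the 4 lines. TMPRSS2 did not pass the filter.

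Over the 32 libraries, the gene most like HRNR among 2095 candidates was FLG, with Spearman's rho of 0.87 and Pearson's r of 0.96 on log2 CPM. The points share libraries and depth, and the 8 groups lie apart. They include the repressive line, from which HRNR was chosen and in which FLG was seen to fall with it. The likeness is therefore a description of the levels and not separate support for a shared response. Next came CTD-2531D15.5 (rho 0.83), RP11-589M4.1 (0.82), ERCC1 (0.82), ST6GALNAC2 (0.80) and SRR (0.80). Their Pearson's r was lower than for FLG, from 0.39 to 0.58, and in the repressive line their log2 fold changes lay between -0.59 and -0.25. None of them is among the genes annotated without an exon overlap on the opposite strand. Only 902 of the 3985 genes tested are, so that nothing is read from this. The least like were AC074212.5 (rho -0.85), RP11-442H21.2 (-0.80) and TSEN54 (-0.78). KLK3 had a rho of 0.08.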

How the data were processed

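RNA from LNCaP lines was made into libraries with a stranded mRNA kit and sequenced on a NovaSeq instrument. The authors used nf-core/rnaseq with Salmon 1.9.0 and the GRCh37 build and deposited estimated counts per gene, not normalized, in 1 table. DESeq2 1.28.0 is named in the submitters' processing notes. The annotation release and the strand setting are not given in the sources used here. Every column was matched to a sample by name.

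Estimated counts were first rounded to the nearest integer. The 3985 genes that passed edgeR's expression filter over the 8 groups were then tested with edgeR 4.0.16 (R 4.3.3, quasi-likelihood, TMM, Benjamini-Hochberg adjustment over all 3985 and a threshold of 0.05), each fit holding only the libraries compared. DESeq2 1.42.0 was an alternative. Standard errors were taken from the fold change and its F statistic. Single values were compared with exact permutation tests. Fold changes from low counts are drawn towards 0. In simulated counts for the neutral response, edgeR called 161 of 200 genes changed 2-fold among 3985, with 4 false calls. The changed genes had a mean of at least 20 counts, and every gene had the same dispersion of 0.03. The numbers are thus no estimate of power or false calls in the observed libraries.

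HRNR, FLG, FLG2 and the gene lists were chosen with earlier results of these data known. Named besides these are the other S100-fused genes, FLG-AS1, list genes called in at least 1 line, genes within 300 kb of HRNR with at least 10 counts, androgen-induced genes, and the 6 genes most and 3 least like HRNR by Spearman's rho among tested genes with a mean of at least 20 counts. TBPL1, GAPDH and KRT5 were named after their values were seen, and some genes of the rule are not reported here. Positions come from GENCODE lifted to GRCh37, which held 96.1% of the table's genes, and promoter shares from RefSeq's GRCh38.p14 table. Alternatives changed the normalization, the filter, the tool and the libraries, or added a replicate block. Within each group, 48 pairs of libraries differed by more than sampling noise (chi-square per gene 1.48 to 32.9). The labels name no batch. Intervals and floors cover the stated error only.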

Additional observations from a re-analysis of the deposited data

Results flagged for a closer look

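Of 32 groups of 4 libraries examined for a library far from the others, 3 had one. The cut-off corresponds to about 1 in 20 for normally distributed values. That rate does not apply to FLG2, where any count in 1 library beside 0 in the others passes the cut-off. FLG2 in parental cells under tamoxifen had a normalized count of 1.64 in replicate 3 and 0 in the others, which is 1 count. FLG2 in the repressive line under tamoxifen had 3.48 in replicate 2 and 0 in the others, which is 2 counts. The repressive line under vehicle had 34.3 FLG counts per 100 HRNR counts in replicate 2, while the other 3 libraries lay between 31.1 and 31.3.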

How the results depend on the processing

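HRNR and FLG gave 20 differences, and 325 values under alternatives. Of the 233 from tested comparisons, 203 kept their direction and their side of the threshold. Of the 92 from comparisons with the repressive line, which were not tested, 90 kept their direction and moved by less than 1 standard error. The HRNR difference in the activating response passed the threshold with DESeq2's test (-0.60), no filter (-0.60), at least 10 counts in every library (-0.77), all 32 libraries in 1 fit (-0.61) and library totals without TMM (-1.06), and ranged from -0.74 to -0.44 without single libraries. The activating against neutral response of HRNR passed with no filter (-0.60) and library totals (-0.84), and ranged from -0.70 to -0.40. The HRNR difference between the activating and parental lines under vehicle was not called with at least 10 counts (-0.52), the replicate block (-0.58) or library totals (-0.58), and ranged from -0.78 to -0.49. Signs changed only in values that were never called. FLG in the activating response had 0.00 with DESeq2's size factors, 0.01 with no filter and -0.19 to 0.23 without single libraries. Without single libraries FLG in parental cells ranged from -0.00 to 0.10, HRNR in the neutral response from -0.13 to 0.02 and FLG2 in the neutral response from -0.197 to 0.867 in normalized count. In the repressive response FLG ranged from -3.46 to -2.63 and HRNR from -2.91 to -2.57. The ratio of FLG to HRNR lost its unadjusted p of 0.0286 between the neutral and parental lines without parental replicate 1 or 3 (log2 difference -0.82 and -0.83). The cause of these differences was not tested.

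Counts of genes called moved by over 1.5 times under some settings. The parental response had 24 with no filter and 1 with library totals. The activating response had 1071 with at least 10 counts and its difference from the neutral response 802. DESeq2 called 451 in the repressive response. The activating and parental lines under vehicle differed in 542 genes with all 32 libraries in 1 fit, and the activating and neutral lines in 37 with no filter. Over the 902 genes with no exon on the opposite strand, chosen after seeing the data, the neutral, activating and repressive responses had 31, 361 and 133 calls, the neutral and activating lines against parental 36 and 25, and the activating against the neutral response 246. Without single libraries the neutral response had 105 to 415 calls, the neutral against the parental line 202 to 517, the activating against the parental line 120 to 315 and against the neutral line 9 to 23, and the parental response 0 to 3. Correlations of deviations between same-numbered libraries were weak, from -0.03 to 0.25 within a line and down to -0.38 between the parental and activating lines under vehicle. The same-numbered tamoxifen library was the best match of its line for 3 of 4 parental, 2 of 4 neutral, 4 of 4 repressive and 2 of 4 activating vehicle libraries. Whether replicate numbers pair libraries was therefore not settled. With the replicate block the parental response had 32 calls, the neutral against parental line 208, the activating against parental line 90 and the activating against neutral line 53. With at least 10 counts in every library FLG had no value in the repressive response, and FLG was not among the 902 genes. DESeq2 was not run with the block. With a median of 669922 counts per library, FLG2 had few counts throughout and FLG few in the induced repressive line.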
